A study of Mus musculus with 8 samples.

Results

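The Hox cluster genes of the mouse were followed in TCMK-1, an immortal line of kidney epithelial cells, after knockdown of smgGDS under cisplatin. They were taken as every row of the deposited table whose symbol is Hox, a cluster letter from a to d and a number. This gave 39 of the 21879 rows, 11 in the Hoxa cluster, 10 in Hoxb, 9 in Hoxc and 9 in Hoxd. The knockdown group (KD) held 4 libraries of cells carrying an shRNA against smgGDS and the control group (NC) held 4 libraries of cells carrying a control shRNA, and all 8 are labelled with 20 µM cisplatin, a DNA-crosslinking chemotherapy drug with known toxicity to kidney tubules. No library without cisplatin was analysed here. smgGDS, the product of Rap1gds1, promotes nucleotide exchange and membrane trafficking of several small GTPases. The knockdown is described as an established line, so each group may be 1 line, and no shRNA sequence was used here. Nothing in the labels ties the 4 libraries of a group to independent cultures, so p-values here speak of the spread between these libraries, which may be technical spread.

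Hox genes encode transcription factors that bind DNA through a homeodomain and give cells their position along the body axis. Within a cluster the genes are ordered by paralogue number, from low numbers active in the anterior embryo to high numbers active posteriorly, and genes of the same number in different clusters descend from a common ancestor. Polycomb complexes keep clusters silent where they are not used, trithorax-group proteins and retinoic acid promote their activity, and the PBX, MEIS and PKNOX proteins of the TALE class bind DNA together with Hox proteins. In the embryonic kidney the group 11 genes are required for the metanephros to form, and Hoxb7 is active in the ureteric bud.

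Total counts were 12746051 to 14280962 per library in KD and 11560977 to 16059158 in NC, so that 3 counts in a library correspond to 0.181 to 0.257 CPM (counts scaled to the library's depth), a floor that covers counting error only. The targeted gene Rap1gds1 had 38, 30, 33 and 35 counts in KD libraries 1 to 4 and 276, 258, 241 and 181 counts in NC libraries 1 to 4, or 16.2% of its control level (95% interval 13.6% to 19.5%), so no library went against its label. KD library 4 stood apart, at -20.9 on the leading principal component (29.2% of the variance) against -9.58 to -8.86 in the other KD libraries and 8.86 to 16.5 in NC. Of 14 kidney epithelial markers, 7 passed the expression filter and 1 was called, Aqp1, which was lower in KD. Several epithelial markers were near 0, with at most 5 counts of Cdh1 in any library, at most 3 of Pax2 and none of Umod. The summed epithelial markers were 150 to 158 CPM in KD and 175 to 189 CPM in NC. The median log2 fold change (KD minus NC) of the 7 tested ones was only -0.03, so the sum does not show a fall common to them. Of 5 fibroblast and pericyte markers 4 were tested and all 4 (Col1a1, Col3a1, Pdgfrb and Dcn) were called higher in KD. The 5 markers summed to 356 to 407 CPM in KD and 297 to 323 CPM in NC. Over all 11576 tested genes, 11.1% were called higher and 9.15% lower in KD (edgeR, adjusted p under 0.05). Endothelial markers summed to at most 0.801 CPM in KD and 1.11 CPM in NC, and of 4 leukocyte markers only Cd68 was tested and was not called. Whether these differences in marker levels bear on the Hox values was not tested, and in bulk samples fewer cells of a type and less RNA per cell cannot be told apart.

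The homeobox, the 180 bases that encode the homeodomain, is shown for Hoxb9 and Hoxc9, the group 9 genes with the most reads, which carried much of the Hox RNA of these cells, and for Hoxc13, the member with the smallest p-value. Sequences are from GENCODE M21 on GRCm38, 5′ to 3′ in the sense of the gene, and capitals mark the codons of the recognition helix, which lies in the major groove of the DNA.
Hoxb9 (chr11:96274659-96274838, plus strand): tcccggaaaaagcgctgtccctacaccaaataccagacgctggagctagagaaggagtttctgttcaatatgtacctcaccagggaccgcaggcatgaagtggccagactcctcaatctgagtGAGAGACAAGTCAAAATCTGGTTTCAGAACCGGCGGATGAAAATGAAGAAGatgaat
Hoxc9 (chr15:102983930-102984109, plus strand): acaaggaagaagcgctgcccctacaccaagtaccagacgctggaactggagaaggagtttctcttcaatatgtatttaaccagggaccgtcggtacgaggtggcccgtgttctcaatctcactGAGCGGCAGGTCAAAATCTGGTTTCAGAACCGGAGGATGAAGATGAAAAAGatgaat
Hoxc13 (chr15:102927210-102927389, plus strand): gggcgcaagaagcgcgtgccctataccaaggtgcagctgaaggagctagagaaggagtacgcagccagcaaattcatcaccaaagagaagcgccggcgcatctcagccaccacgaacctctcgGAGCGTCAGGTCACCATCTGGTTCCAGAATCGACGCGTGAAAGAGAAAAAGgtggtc
Hoxb9 and Hoxc9 share 151 of the 180 bases (83.9%), and their longest identical run is 24 bases. Over whole transcripts, Hoxb9 and Hoxc9 hold an identical stretch of at least 50 bases and none of at least 75. Every Hox count in the table was a whole number.

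Of the 39 Hox genes, 34 had at least 1 count in some library and 5 were at 0 in all 8 (Hoxb1, Hoxd1, Hoxd4, Hoxd11 and Hoxd12). Expression was concentrated in Hoxa, Hoxb and Hoxc, where 8 genes each passed the expression filter and could be tested, while no Hoxd gene did. On CPM without TMM scaling, the scale of the filter, all 24 tested genes were at or above its level of 0.739 in every library, so none passed through 1 group alone. Together the Hox genes took 0.0409% to 0.0421% of all counts in KD libraries and 0.0474% to 0.0489% in NC libraries, 2 ranges that do not overlap. Their summed level was 422, 416, 430.3 and 420.1 CPM in KD libraries 1 to 4 and 469.5, 472, 483 and 469 CPM in NC libraries 1 to 4, a KD mean of 89.2% of the NC mean.

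Compared per transcript length, on the authors' FPKM scale, the highest Hox levels belonged to Hoxc9, which specifies thoracic motor neuron identity, and to its paralogue Hoxb9. Hoxc9 had 34.6 ± 3.06 FPKM in KD and 38.6 ± 1.53 FPKM in NC, and Hoxb9 had 32.4 ± 0.60 FPKM in KD and 27.6 ± 1.36 FPKM in NC (SD, n = 4 each). Below them came Hoxc6 at 20.1 ± 0.85 FPKM in KD and 27.6 ± 1.26 FPKM in NC, Hoxc10, Hoxa9 and Hoxc13. In NC the means of Hoxb9 and Hoxc6 lay within each other's SD, as did those of Hoxa9 and Hoxc13. In KD the mean of Hoxb9 lay within the SD of Hoxc9, but the mean of Hoxc9 did not lie within the smaller SD of Hoxb9. The median FPKM of all tested genes was 6.56, and 10 of the 24 tested Hox genes lay above it. Levels were lower toward the anterior end of the numbering: groups 1 to 4 held 7.46 ± 0.76% of the summed Hox FPKM in KD and 7.30 ± 0.43% in NC (SD, n = 4 each, as for the next 2 values). Groups 5 to 8 held 28.1 ± 0.32% in KD and 30.6 ± 1.06% in NC, and groups 9 to 13 held 64.5 ± 1.04% in KD and 62.1 ± 1.3% in NC. Group 9 alone held 42.9 ± 0.96% of the Hox FPKM in KD and 37.3 ± 1.00% in NC.

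**Figure D1:**
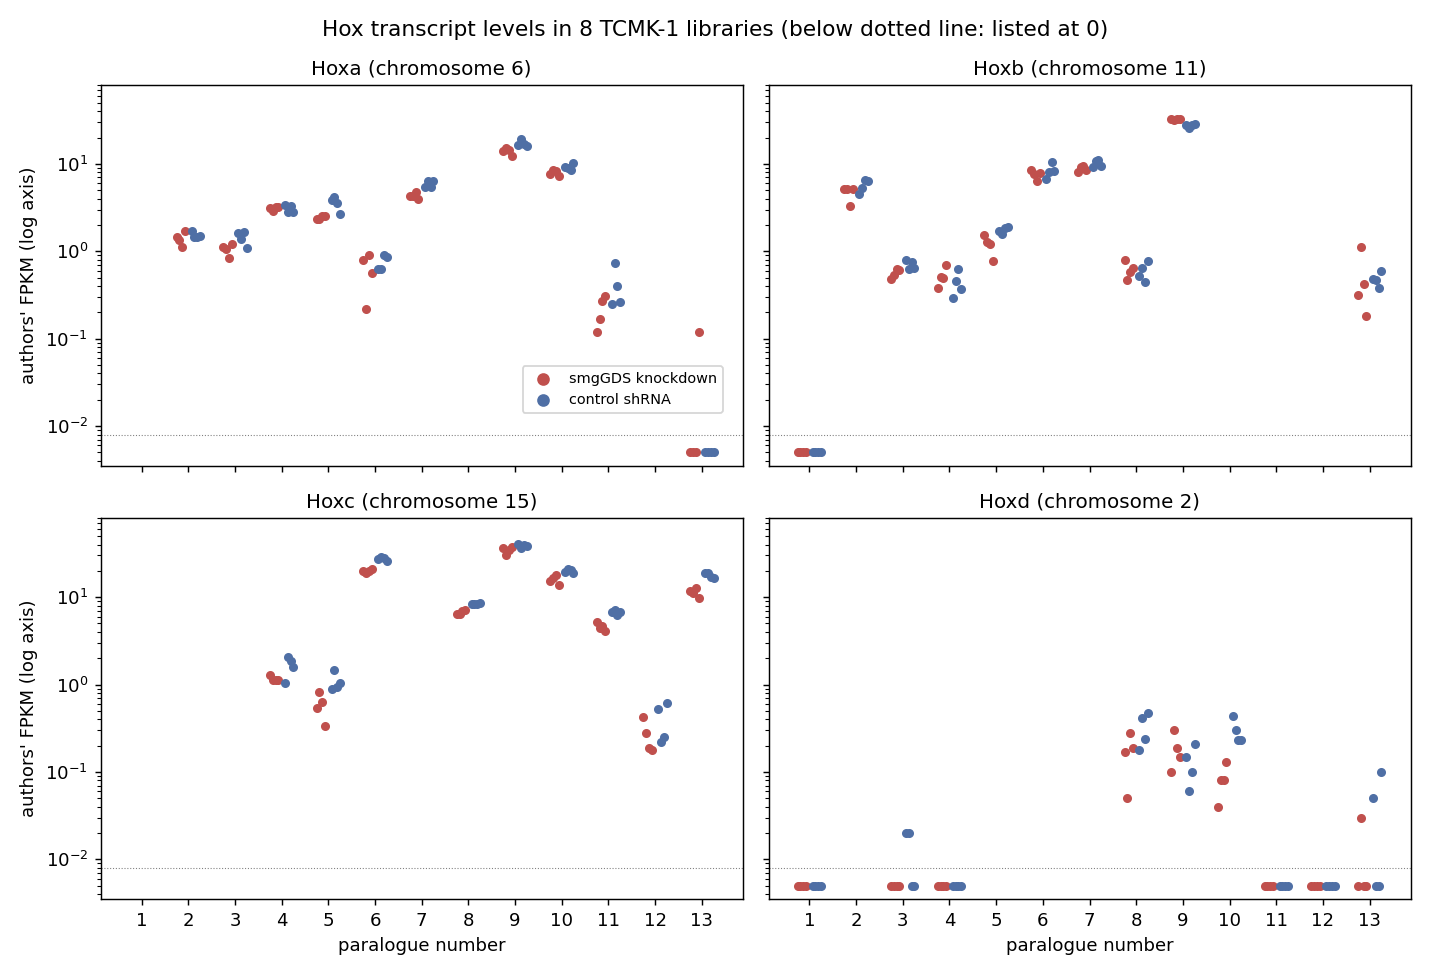
Levels of Hox genes on the authors' FPKM scale (log axis) by paralogue number, 1 panel per cluster and 1 point per library, KD left of NC; points under the dotted line are listed at 0. Hoxb9, Hoxc9 and Hoxc6 lie near the top, and every Hoxd gene lies below 1 FPKM in every library.

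The comparison of KD with NC asked which Hox transcripts differed when smgGDS was depleted in cisplatin-treated cells. Of the 24 tested genes, 9 fell and 1 rose in KD by edgeR's quasi-likelihood test at an adjusted p under 0.05, and 14 were not called. The genes that fell were Hoxa5, Hoxa7, Hoxa9, Hoxc5, Hoxc6, Hoxc8, Hoxc10, Hoxc11 and Hoxc13, and the gene that rose was Hoxb9. Across all 11576 tested genes, 9.15% were lower, 11.1% were higher and 20.2% were called in either direction. The median log2 fold change, always KD minus NC, was -0.26 over the 24 Hox genes (range -0.84 to 0.29) and -0.00 over all tested genes, and 20 of the 24 Hox genes had a negative value against 51.0% of all tested genes. For the same 10 genes the 4 KD values and the 4 NC values did not overlap, 9 below and 1 above, where 9.61% of all tested genes lay below and 11.5% above in that way, together 21.1%. Scaling by library totals alone moved the median of all genes by -0.06 and called 766 genes higher and 1951 lower, against 1285 and 1059 with TMM scaling. Under it 1 Hox gene was higher and 10 lower. Without KD library 4, which stood apart, 1 Hox gene was higher and 7 were lower, where 8.85% and 6.87% of all tested genes were called. Without NC library 2, 1 Hox gene was higher and 6 were lower, where 9.13% and 6.97% of all tested genes were called.

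**Figure D2:**
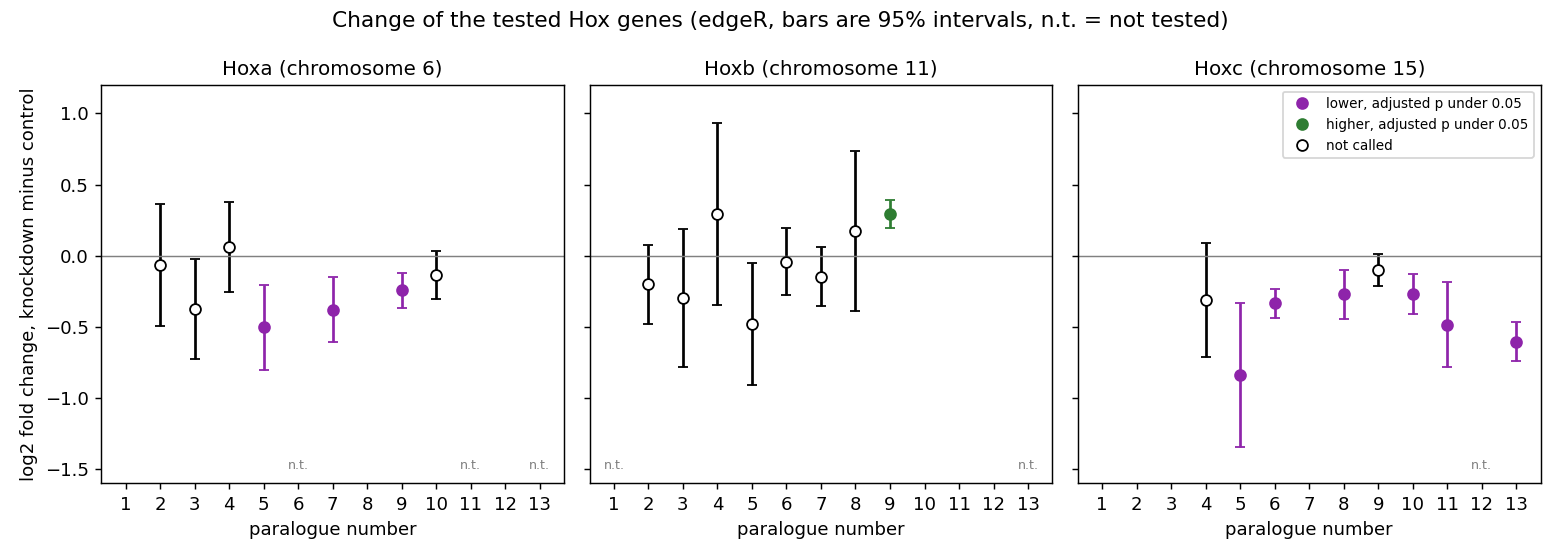
Log2 fold change (KD minus NC) of tested Hox genes by paralogue number, with 95% intervals from edgeR; filled points passed an adjusted p of 0.05 and n.t. marks members that were not tested. In Hoxc all 8 values lie below 0 and 6 are called, whereas in Hoxb the only called gene is Hoxb9, above 0.

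The Hoxc cluster, on chromosome 15 (102921131 to 103036856, 115.7 kb, GRCm38.p6), held the most Hox RNA and the most called genes. Its summed level was 199.8, 194, 207 and 200.7 CPM in KD libraries 1 to 4, against 249, 248, 251 and 242 CPM in NC libraries 1 to 4. All 4 KD libraries were below all 4 NC libraries, and the KD mean was 81.0% of the NC mean. Of the 8 tested Hoxc genes 6 fell and 0 rose, where 9.15% of all tested genes were lower and 11.1% higher. The median log2 fold change of the 8 Hoxc genes was -0.32. At an unadjusted p under 0.05 edgeR also gave 0 higher Hoxc genes, as did DESeq2 (no adjusted p for Hoxc5) and limma voom at their adjusted p.

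Hoxc13, at the posterior end of the cluster and known for its control of hair keratins and nail formation, changed with the smallest p-value of any Hox gene. Its level was 29.0, 27.5, 31.3 and 24.4 CPM in KD and 45.0, 44.7, 40.8 and 39.6 CPM in NC. Every KD library was below every NC library, with the lowest value in KD library 4. The KD level was 65.8% of the NC level (95% interval 59.7% to 72.5%), a log2 fold change of -0.60 (SE 0.07, edgeR adjusted p = 1.23e-08), which ranked 52 among all tested genes by p-value. Over all 4 group 13 genes, Hoxc13 made up 95.4 ± 3.2% of the FPKM in KD and 97.2 ± 0.82% in NC (SD, n = 4 each).

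Hoxc6, a regulator of thoracic patterning and limb-level motor neurons, was the next by p-value. It had 52.6, 56.3, 55.0 and 57.2 CPM in KD and 68.5, 69.1, 72.9 and 68.1 CPM in NC. The values clustered tightly within each group and did not overlap. The KD level was 79.3% of the NC level (95% interval 74.0% to 85.1%), a log2 fold change of -0.33 (SE 0.05, edgeR adjusted p = 2.59e-06).

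Hoxc10 and Hoxc11, which act in lumbar and sacral patterning and hindlimb motor neurons, also fell. Hoxc10 had 30.0, 31.8, 35.5 and 27.3 CPM in KD and 36.7, 39.0, 38.6 and 35.9 CPM in NC, with the highest KD library just under the lowest NC library. Its log2 fold change was -0.27 (SE 0.07, edgeR adjusted p = 0.00337). Hoxc11 had fewer reads, with 4.85, 4.16, 4.33 and 3.84 CPM in KD and 6.03, 6.33, 5.65 and 6.07 CPM in NC. The groups were separate and the log2 fold change was -0.49 (SE 0.15, edgeR adjusted p = 0.0160). Over the alternatives its adjusted p lay between 0.00145 and 0.0536, and the call was lost without KD library 4.

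Hoxc8 and Hoxc5 were the remaining Hoxc genes that fell. Hoxc8, which acts at the brachial and thoracic level, had 15.4, 15.3, 16.6 and 17.3 CPM in KD and 19.3, 19.1, 19.6 and 19.8 CPM in NC. The NC libraries were nearly equal and all lay above the KD libraries. The log2 fold change was -0.27 (SE 0.08, edgeR adjusted p = 0.0185), and the call was lost without KD library 1 or KD library 2 (adjusted p up to 0.0624, with 0.00396 as the lowest over the alternatives). Hoxc5, which acts in cervical motor neurons, rested on only 12 to 29 counts per KD library and 33 to 64 per NC library. It had 1.5, 2.28, 1.76 and 0.959 CPM in KD and 2.4, 3.86, 2.51 and 2.82 CPM in NC, with the highest KD value close to the lowest NC value. Its estimate was the most negative among tested Hox genes, at -0.84 (SE 0.25, edgeR adjusted p = 0.0138), with a KD level of 55.9% of NC and a wide 95% interval of 39.3% to 79.5%. DESeq2 gave it no adjusted p, the call was lost without KD library 4 and without NC library 2, and its adjusted p lay between 0.00491 and 0.0984 over the alternatives. Hoxc5 and Hoxc10 share 166 exon bases on the same strand in GENCODE M21. Their RefSeq spans, 103014008 to 103017429 and 102966796 to 102971898, do not overlap. The deposited Hox rows carry NCBI gene numbers, but the annotation used for counting is not stated. If it held the shared exon bases, reads there could not be told apart and both values would be less certain.

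Hoxc9 and Hoxc4 were the Hoxc genes not called. Hoxc9 had 63.1, 53.2, 60.0 and 66.5 CPM in KD and 67.8, 61.0, 66.8 and 65.4 CPM in NC. The groups overlapped, and the log2 fold change was -0.10 with a 95% interval of -0.22 to 0.01 (edgeR adjusted p = 0.205). Hoxc4, a cervical-level gene with 2.48 to 3.04 CPM in KD and 2.58 to 4.34 CPM in NC, had a log2 fold change of -0.31 (edgeR adjusted p = 0.289). Hoxc12 had 12 counts over the KD libraries and 19 over the NC libraries and was not tested.

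**Figure D3:**
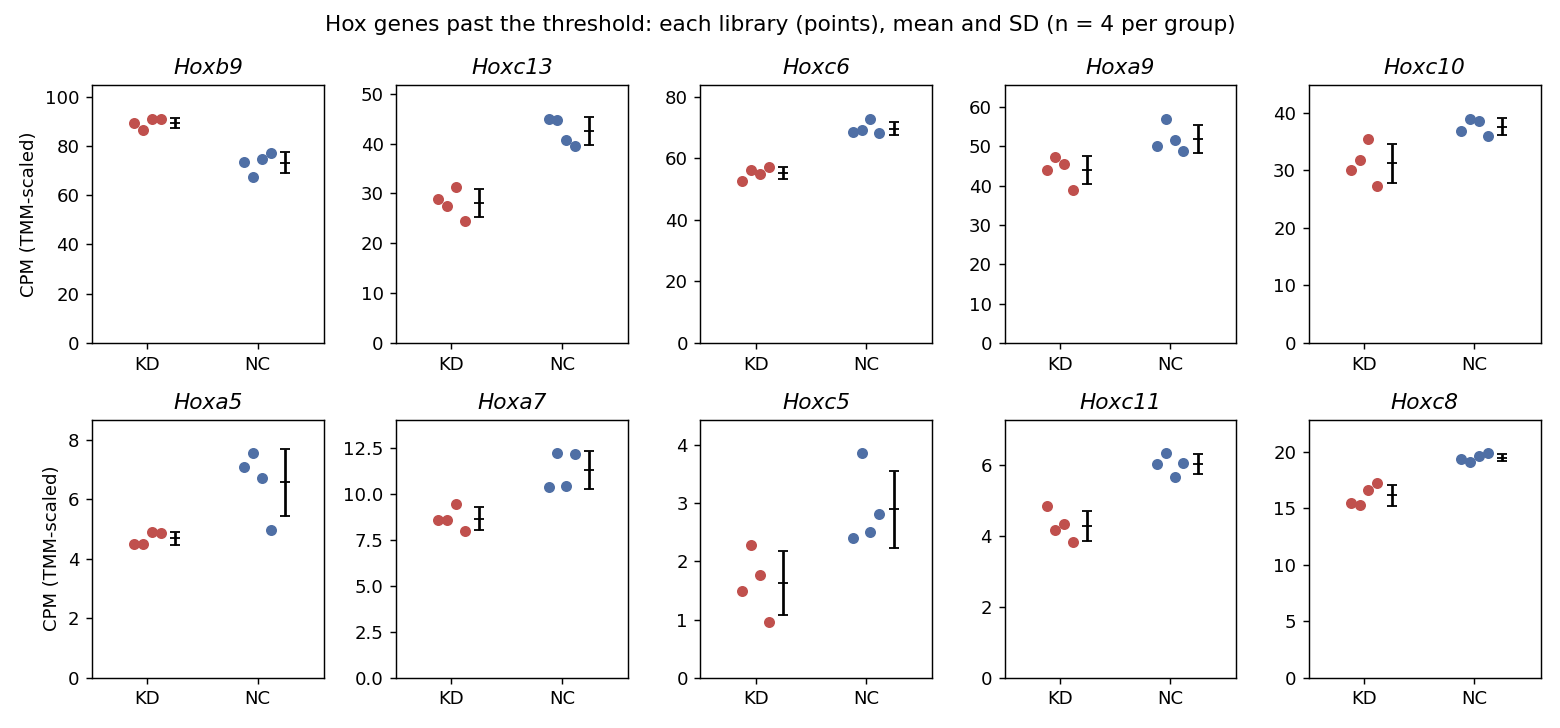
TMM-scaled CPM of the 10 Hox genes that passed the threshold, 1 point per library, with the mean and SD beside each group (n = 4), KD left of NC and axes from 0. In each panel the 4 KD points and the 4 NC points do not overlap, and Hoxb9 is the only gene with KD above NC.

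The Hoxb cluster, on chromosome 11 (96194316 to 96368254, 173.9 kb), held the only Hox gene that rose. Its most abundant member, Hoxb9, which patterns the thoracic skeleton together with its group 9 paralogues, had 89.1, 86.6, 90.8 and 91.1 CPM in KD and 73.3, 67.2, 74.8 and 77.2 CPM in NC. All KD libraries were above all NC libraries. The KD level was 122.5% of the NC level (95% interval 114.7% to 130.9%), a log2 fold change of 0.29 (SE 0.05, edgeR adjusted p = 9.19e-06). The raw counts were nearly equal, at 1102 to 1249 in KD and 902 to 1191 in NC, before scaling by library depth.

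The other 7 tested Hoxb genes were not called, where 20.2% of all tested genes were called in either direction. At an unadjusted p under 0.05 edgeR gave 1 lower gene among them, Hoxb5. Limma voom called 0 lower, as did DESeq2, which gave no adjusted p for Hoxb3, Hoxb4, Hoxb5 and Hoxb8. Hoxb5, which acts in enteric neural crest and the shoulder girdle, had 1.52 to 3.00 CPM in KD and 2.90 to 3.59 CPM in NC, with a log2 fold change of -0.48 (edgeR adjusted p = 0.106). Hoxb7, the ureteric bud gene, had 10.5 to 12.1 CPM in KD and 11.4 to 14 CPM in NC and a log2 fold change of -0.15 (edgeR adjusted p = 0.346). Hoxb6 had 12.6 ± 1.59 CPM in KD and 13.1 ± 2.50 CPM in NC (SD, n = 4 each). Hoxb2 and Hoxb3, which act in the hindbrain, had log2 fold changes of -0.20 and -0.30. Hoxb4, known for expanding blood stem cells, and Hoxb8, known in myeloid progenitors and microglia, had positive values of 0.29 and 0.17 at levels under 2.1 CPM, with edgeR adjusted p-values of 0.577 and 0.720. The cluster sum followed Hoxb9, at 126 to 130.6 CPM in KD and 108 to 123 CPM in NC, with a KD mean of 110.9% of the NC mean, and those ranges did not overlap. On the FPKM scale, where each gene counts per length, the sum was 55.3 to 57.6 in KD and 51.9 to 60.4 in NC, with a KD mean of 102.1% of the NC mean and overlapping ranges. Hoxb13, a prostate and tail-bud gene lying apart from the rest, had 35 counts over KD libraries, 19 of them in KD library 2, and 36 over NC libraries, and was not tested.

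The Hoxa cluster, on the minus strand of chromosome 6 (52155367 to 52260880, 105.5 kb), was lower in KD in sum, at 87.9 to 95.8 CPM in KD and 105 to 115 CPM in NC, with a KD mean of 85.0% of the NC mean. Of its 8 tested genes 3 fell and 0 rose, where 9.15% of all tested genes were lower and 11.1% higher. The median log2 fold change of the 8 Hoxa genes was -0.21. At an unadjusted p under 0.05 edgeR gave 0 higher and 4 lower, and DESeq2 (no adjusted p for Hoxa2) and limma voom each called 0 higher and 3 lower.

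Hoxa9, required for normal blood stem cells and often overexpressed in acute leukaemia, had 43.9, 47.4, 45.6 and 38.9 CPM in KD and 50.1, 57.1, 51.7 and 48.9 CPM in NC. The groups were separate by a small margin. The log2 fold change was -0.24 (SE 0.06, edgeR adjusted p = 0.00287), a KD level of 84.4% of NC. Hoxa7, a thoracic patterning gene, had 8.56, 8.56, 9.45 and 7.99 CPM in KD and 10.3, 12.2, 10.4 and 12.1 CPM in NC. Its log2 fold change was -0.38 (SE 0.11, edgeR adjusted p = 0.0122). Hoxa5, needed for lung and respiratory tract development, had 4.49, 4.48, 4.89 and 4.87 CPM in KD and 7.08, 7.54, 6.70 and 4.96 CPM in NC, so that NC library 4 lay just above the KD libraries. Its log2 fold change was -0.50 (SE 0.15, edgeR adjusted p = 0.0121). Without NC library 2 both calls were lost. Over the alternatives the adjusted p of Hoxa7 lay between 0.00364 and 0.0508 and that of Hoxa5 between 0.00314 and 0.0606.

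Hoxa10, required in the uterus for implantation, had 18.2 to 20.7 CPM in KD and 20.0 to 24.0 CPM in NC and was not called (log2 fold change -0.14, edgeR adjusted p = 0.264). The anterior Hoxa genes were scarce and not called. Hoxa2, which sets the identity of a branchial arch, had 2.55 ± 0.46 CPM in KD and 2.67 ± 0.21 CPM in NC (SD, n = 4 each). Hoxa3, required for the thymus and parathyroid glands, had a log2 fold change of -0.38 (edgeR adjusted p = 0.127) and Hoxa4 one of 0.06 (edgeR adjusted p = 0.838). Hoxa11, the Hoxa member of the group required for the embryonic kidney, had 4, 5, 8 and 9 counts in KD and 9, 27, 13 and 7 counts in NC and was not tested. Hoxa6 had 23 counts over the KD libraries and 30 over the NC libraries, and Hoxa13, a limb-tip and genital gene, had 2 counts in KD library 4 and none elsewhere.

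Neither strand nor annotation is stated for the counting, and overlapping genes may therefore limit some values. By GENCODE M21, 16 Hox genes, 11 of them tested, share exon bases with another gene, and 7 tested ones share them with a gene on the opposite strand. Among the called genes this concerns Hoxa7, which shares 586 bases with the antisense gene Hoxaas3, beside Hoxc5 and Hoxc10. Hoxa9 contains the 85 bases of the Mir196b hairpin. Of the 11 tested genes with shared bases, only Hoxc5 and Hoxc10 share them with a gene that has its own deposited row.

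RefSeq start sites were matched for 22 Hox genes, 9 of them tested. The 250 bases before the start are shown for the called genes with an entry, Hoxa5, Hoxa7 and Hoxa9, the 3 genes of Hoxa that fell (GRCm38.p6, 5′ to 3′ in the sense of the gene). Capitals mark the letters ATTGG, the reverse strand of a CCAAT box.
Hoxa5 (chr6:52204588-52204837, minus strand): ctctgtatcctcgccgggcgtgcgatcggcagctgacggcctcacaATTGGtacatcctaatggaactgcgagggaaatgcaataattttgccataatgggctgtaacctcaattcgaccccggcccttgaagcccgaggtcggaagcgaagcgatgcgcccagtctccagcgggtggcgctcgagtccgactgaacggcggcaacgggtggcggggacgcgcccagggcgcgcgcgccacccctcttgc
Hoxa7 (chr6:52218574-52218823, minus strand): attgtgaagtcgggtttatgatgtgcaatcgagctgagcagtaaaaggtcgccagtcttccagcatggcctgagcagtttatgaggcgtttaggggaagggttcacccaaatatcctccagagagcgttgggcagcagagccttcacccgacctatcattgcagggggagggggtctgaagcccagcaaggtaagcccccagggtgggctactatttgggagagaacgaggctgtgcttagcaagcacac
Hoxa9 (chr6:52227371-52227620, minus strand): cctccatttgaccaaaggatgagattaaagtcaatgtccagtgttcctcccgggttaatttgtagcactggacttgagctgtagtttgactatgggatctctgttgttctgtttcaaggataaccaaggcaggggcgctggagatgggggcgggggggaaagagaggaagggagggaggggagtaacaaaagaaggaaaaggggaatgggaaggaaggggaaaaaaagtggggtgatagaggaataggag
The motifs searched, on both strands, were the CCAAT box, a core promoter element spelled TATAAA, and a form of the joint PBX and HOX site spelled TGATNNAT. Hoxa5 held 1 CCAAT, at 204 bases before the start, and no other match, and the windows of Hoxa7 and Hoxa9 held none of these letters. Across 32851 RefSeq promoter windows of the same length, the CCAAT box was found in 33.8%, the TATAAA element in 12.4% and the joint site in 7.68%. Of the 24 Hox windows 14 held the CCAAT box, 4 the TATAAA element and 4 the joint site. The GC content was 63.6% for Hoxa5, 54.8% for Hoxa7 and 49.6% for Hoxa9, against a median of 58.6% over the Hox windows and 52.4% over all windows.

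The Hoxd cluster, on chromosome 2 (74668225 to 74765142, 96.9 kb), was close to the detection limit. Its 9 genes summed to 9, 12, 13 and 12 counts in KD libraries 1 to 4 and 27, 23, 16 and 23 counts in NC libraries 1 to 4, or 0.896 ± 0.175 CPM in KD and 1.53 ± 0.365 CPM in NC (SD, n = 4 each). The KD sums lay below the NC sums, but narrowly, at 1.04 CPM in KD library 3 and 1.12 CPM in NC library 3. Among the single Hoxd genes only Hoxd10 had groups that did not overlap, and Hoxd9 had more counts in KD. Hoxd10, which acts in lumbar motor neurons, had 1, 2, 2 and 3 counts in KD and 13, 9, 6 and 5 counts in NC. Its groups did not overlap. A fit without the expression filter gave a log2 fold change of -1.78 (SE 0.66, edgeR adjusted p = 0.0499), which rests on these few counts. Of the 10 Hox genes added by that fit, no other was called (edgeR adjusted p of 0.190 or more). The same fit called 7.74% of all 16372 fitted genes higher and 6.7% lower. Hoxd8 had 17 counts over the KD libraries and 34 over the NC libraries, and Hoxd9 had 20 over the KD libraries and 15 over the NC libraries. Hoxd13, which acts in the digits, had 1 count in KD and 5 in NC, and Hoxd3 had 0 in KD and 2 in NC. For the 4 Hoxd genes at 0 a difference was not detectable at this depth.

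Grouped by paralogue number, called genes lay in groups 5 to 13. Of the 8 tested genes in groups 1 to 4 none was called (edgeR 0 higher and 0 lower, with 1 lower at an unadjusted p under 0.05, and 0 with limma voom and with DESeq2, which gave no adjusted p for 3 of them). In groups 5 to 8, 5 of 9 tested genes fell and 0 rose, also 0 at an unadjusted p under 0.05 and by limma voom and DESeq2, which gave no adjusted p for 3 of them. In groups 9 to 13, 4 of 7 fell and 1 rose. Beside these counts, edgeR called 9.15% of all tested genes lower, 11.1% higher and 20.2% in either direction. Genes of groups 1 to 4 had fewer reads than most of the others, and the difference in calls between the groups was not tested.

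Within group 9, Hoxb9 rose and Hoxa9 fell, and the sums of the group overlapped between KD and NC. The summed FPKM of the 4 genes was 81.1 ± 2.43 in KD and 83.4 ± 1.41 in NC (SD, n = 4 each). Hoxb9 made up 39.3%, 40.8%, 40.3% and 39.7% of that sum in KD libraries 1 to 4 and 32.7%, 31.6%, 33.3% and 34.6% in NC libraries 1 to 4, with every KD library above every NC library. Hoxa9 made up 17.1 ± 1.96% in KD and 20.5 ± 1.97% in NC, and Hoxc9 made up 42.6 ± 2.61% in KD and 46.3 ± 1.09% in NC (SD, n = 4 each). Hoxd9 stayed at 0.231% in KD and 0.155% in NC on average. In groups 5, 6, 7, 8, 10, 11 and 13 every KD sum lay below every NC sum. Each of these groups holds at least 1 gene called lower above, so the sums partly restate those calls. No matching share over all genes was computed for FPKM sums. Group 10 had 24.0 ± 2.27 FPKM in KD and 29.5 ± 0.59 FPKM in NC (SD, n = 4 each). Group 13 had 11.9 ± 1.26 FPKM in KD and 18.3 ± 1.25 FPKM in NC (SD, n = 4 each). On log2(FPKM + 0.5) the median log2 fold change over all tested genes was -0.05, so FPKM sums lean lower in KD.

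**Figure D4:**
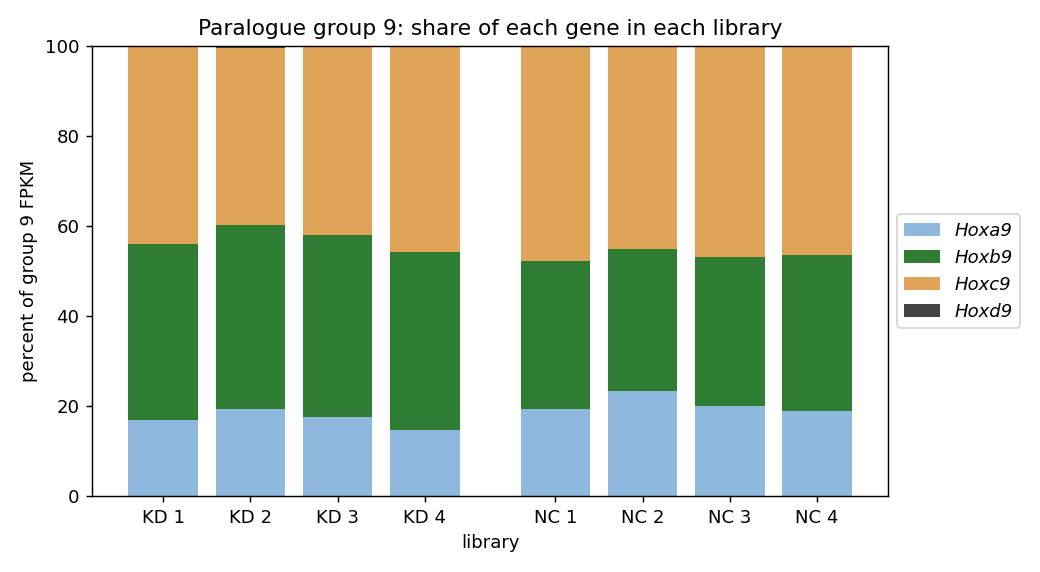
Share of the summed group 9 FPKM (percent, axis from 0) held by Hoxa9, Hoxb9, Hoxc9 and Hoxd9 in each library, the 4 KD libraries left of the 4 NC libraries. The Hoxb9 segment is between 39.3% and 40.8% in KD and between 31.6% and 34.6% in NC, and Hoxd9 is too small to see in most bars.

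The partners and regulators of Hox genes were described from lists of known genes, whose counts stand beside 11.1% higher, 9.15% lower and 20.2% called in either direction over all tested genes. The cofactor list held 10 genes, those of the TALE class and Pbxip1, which encodes a PBX-binding protein outside that class. Of these 10 genes 7 were tested, and edgeR, DESeq2 (no adjusted p for 1 of them) and limma voom called 0 in either direction. At an unadjusted p under 0.05 edgeR also gave 0. The most abundant was Meis3, with 47.3 ± 0.95 CPM in KD and 45.9 ± 1.62 CPM in NC (SD, n = 4 each).

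Of 31 tested Polycomb genes 3 were higher and 5 lower, or 25.8% called against 20.2% of all tested genes, and DESeq2 called 3 higher and 3 lower. Scmh1, a PRC1-associated protein, had 13.8 ± 1.58 CPM in KD and 21.5 ± 2.91 CPM in NC (SD, n = 4 each), a log2 fold change of -0.64 (edgeR adjusted p = 3.61e-06). PRC1 subunit partners Yaf2 and Pcgf5 rose, with log2 fold changes of 0.25 and 0.40 (edgeR adjusted p of 0.00274 and 0.00579). Of 14 trithorax and H3K27 demethylase genes, 2 fell and 0 rose (14.3% called), with 0 higher also at an unadjusted p under 0.05 and by limma voom and DESeq2, which gave no adjusted p for 2 of them. They were the H3K4 methyltransferase Kmt2b (log2 fold change -0.26, edgeR adjusted p = 0.000248) and the complex subunit Rbbp5 (-0.22, edgeR adjusted p = 0.0296).

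In the retinoid and Cdx list, 8 of 16 genes were tested, and 2 rose and 1 fell, or 37.5% called. Cyp26a1, which degrades retinoic acid, had 4.02 ± 0.35 CPM in KD and 2.39 ± 0.34 CPM in NC, and Aldh1a3, which makes it, had 16.9 ± 1.39 CPM in KD and 12.8 ± 2.10 CPM in NC (SD, n = 4 each). Their log2 fold changes were 0.74 and 0.42 (edgeR adjusted p of 0.00415 and 0.00243). The receptor gene Rarg had 79.2 ± 0.46 CPM in KD and 91.8 ± 3.20 CPM in NC, a log2 fold change of -0.21 (edgeR adjusted p = 0.000398). Cdx1, Cdx4 and Rxrg were at 0 in all 8 libraries.

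Among 10 genes of cohesin and CTCF, which shape the chromatin loops around Hox clusters, 1 rose and 2 fell, where 11.1% of all tested genes were higher and 9.15% lower. The cohesin subunit Rad21 fell by 0.20 on the log2 scale and Smc3 fell by 0.17, while Stag2 rose by 0.37 (edgeR adjusted p of 8.58e-05, 0.0307 and 0.00117). Of 12 tested kidney developmental regulators only Osr2 was called, with 2.42 ± 0.81 CPM in KD and 3.69 ± 0.72 CPM in NC (SD, n = 4 each, log2 fold change -0.61, edgeR adjusted p = 0.0391). DESeq2 called 0 of that list lower, Osr2 included, and gave no adjusted p for 3 of its genes, while limma voom called 1. No gene of the list was called higher by edgeR, DESeq2 or limma voom, and 0 were higher at an unadjusted p under 0.05. Six2 and Itga8, genes of the nephron progenitors, had at most 1 count and no count in a library.

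Genes that flank the clusters were called in both directions. Of 18 tested neighbours 5 were higher and 2 lower in KD, where the shares over all tested genes were 11.1% higher and 9.15% lower. The smallest adjusted p among them belonged to Hnrnpa2b1, an RNA-binding protein gene 685.3 kb from Hoxa, which rose by 0.26 on the log2 scale (edgeR adjusted p = 5.35e-09). Snx10, 564.7 kb from Hoxa, rose by 0.60 (edgeR adjusted p = 0.00243) and Lnp, 88.8 kb from Hoxd, rose by 0.37 (edgeR adjusted p = 0.000443). Cbx3, 671.7 kb from Hoxa, fell by 0.14 (edgeR adjusted p = 0.0176). Evx1 and Evx2, homeobox genes next to Hoxa and Hoxd, were at 0 in all 8 libraries. The antisense and microRNA genes of the clusters were not analysed here, since 0 of 18 symbols searched matched a row.

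**Figure D5:**
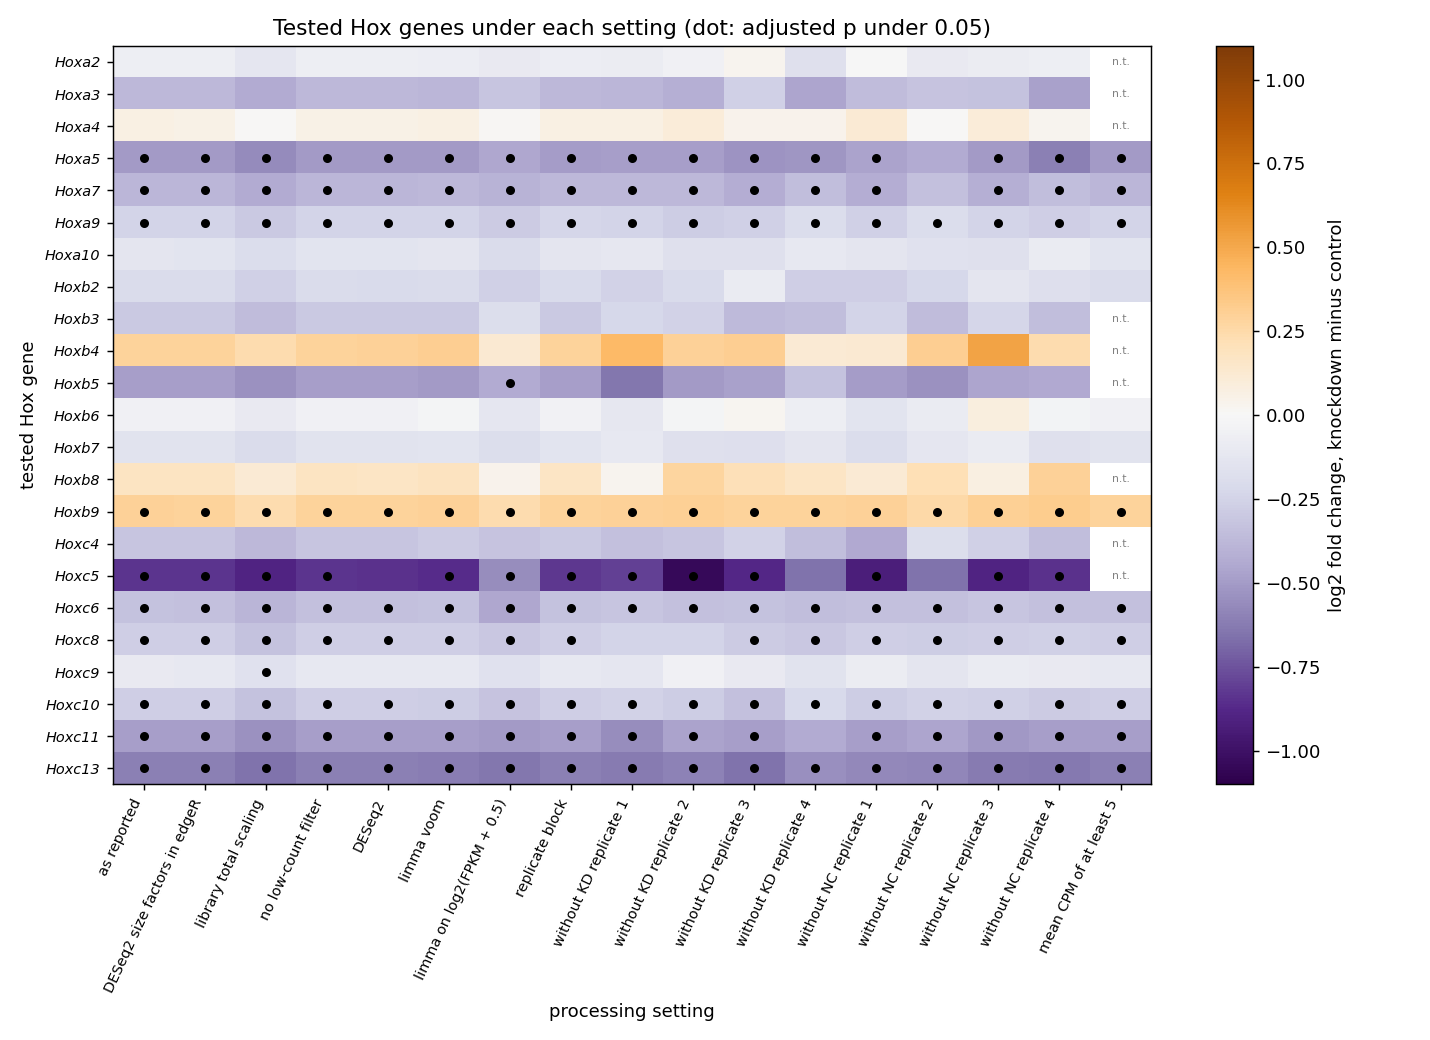
Log2 fold change (KD minus NC, colour scale) of tested Hox genes as reported and under each alternative, with a dot where the adjusted p was under 0.05 and n.t. where a gene was not tested (DESeq2 gave no adjusted p for Hoxa2, Hoxb3, Hoxb4, Hoxb5, Hoxb8 and Hoxc5). Hoxa9, Hoxb9, Hoxc6, Hoxc10 and Hoxc13 carry a dot in every column, and Hoxb9 is orange throughout.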

How the data were processed

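The members and lists were chosen with earlier results of these data known. Poly(A) RNA was enriched with oligo(dT) beads and made into libraries with the NEBNext Ultra kit, per the labels' protocols. The deposited table gives, for every gene, counts and the authors' FPKM. Build GRCm38.p6 and the tools RSEM, StringTie 1.3.1, HISAT2 2.4, Bowtie2 2.2.8 and fastp 0.18.0, beside edgeR and DESeq2, appear without their roles, per the submitters' processing notes. For the counting, annotation and use of strand are not stated in the labels used here.

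Expected counts as deposited were rounded and fitted over the whole table with edgeR 4.0.16 in R 4.3.3 (TMM, filterByExpr by group, robust quasi-likelihood, two-sided, no covariate). P-values were adjusted by Benjamini-Hochberg over 11576 tested genes, with a threshold of 0.05. Standard errors were computed as the fold change over the root of F, and CPM values are TMM-scaled. FPKM served for levels between genes and for sums per length.

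The rule for named genes was every Hox gene, with all libraries for those called and the 5 most abundant, and per related list up to 4 called genes by smallest adjusted p. Other listed genes were named as examples. Some genes and sequences that meet these rules are not reported here. Coordinates of genes came from RefSeq on GRCm38.p6. Alternatives were other size factors, filters, DESeq2 1.42.0, limma 3.58.1 (voom, and log2(FPKM + 0.5)), a replicate block, leaving out each library and a threshold of 0.01. The procedure was tested on simulated data. Replicates differed by more than sampling noise (chi-square over its degrees of freedom, 1.94 to 3.98).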

Additional observations from a re-analysis of the deposited data

How the results depend on the processing

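Across 16 alternatives Hoxb9 was the only Hox gene called higher, and Hoxa9, Hoxb9, Hoxc6, Hoxc10 and Hoxc13 kept their direction and call. The number of Hox genes lower was 9 as reported, 8 to 10 under the other scalings, filters and tools, and 6 (without NC library 2) to 9 with 1 library left out. At an adjusted p of 0.01 it was 4, with 825 genes higher and 580 lower over all genes. Scaling by library totals gave 766 higher and 1951 lower over all genes, and limma on log2(FPKM + 0.5) gave 592 higher and 1481 lower. Leaving out 1 library gave 1033 to 1227 higher and 802 to 997 lower over all genes, 33 to 34 Hox genes detected, and 1 Hox gene higher each time. With 1 library left out Hoxa2 lay between -0.17 and 0.032 on the log2 scale, with the sign turned without KD library 3, and Hoxb6 between -0.14 and 0.085, turned without KD library 3 (0.023) and without NC library 3, none of them called. Hoxb5 was called on FPKM and Hoxc9 under scaling by library totals. Deviations of same-numbered libraries correlated weakly, at -0.036 to 0.083. The best-matching NC library carried the same number for KD libraries 1, 2 and 4, and not for KD library 3. A fit with the replicate block gave 9 Hox genes lower and 1 higher. Over all genes it gave 1425 higher and 1235 lower, against 1285 and 1059 without the block. Few counts limit Hoxd, Hoxa11, Hoxb13 and Hoxc5.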
